A study of Homo sapiens with 55 samples.

Results

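The genes described are 10 transcripts with little or no established link to the gonadotropin-releasing hormone (GnRH) receptor: LBH, C11orf96, LRRC20, TLCD1, PWWP3A, IGDCC3, SAMD11, NREP, KIAA1549L and TMEM266. The genes were chosen by the size of their measured differences between triptorelin and vehicle in SCL60 cells, so their responses to triptorelin in that line are given as a description, with no test. All probes whose annotated gene symbol was 1 of the 10 were taken, which gave 18 of the 48803 probes on the array. Of these, 13 were detected on at least 3 of the 55 arrays and entered the fit with 16016 probes in all, at least 1 for each of the 10 genes out of 10467 named genes. The other 5 probes (1 for LBH, 2 for C11orf96, 1 for LRRC20 and 1 for IGDCC3) were detected on none of the 55 arrays, and each gene is described by its probe with the highest mean signal unless another is named.

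The study measured total RNA of 2 human cell lines on Illumina HumanHT-12 v3 bead arrays. HEK293 is a line derived from embryonic kidney in which the labels give the receptor as undetectable, and SCL60 is a HEK293 derivative, stably transfected with the rat GnRH receptor at a high level and kept in G418. Both lines were grown on plates coated with Matrigel and given 100 nM triptorelin, a stable peptide agonist of the GnRH receptor, or its vehicle, a solution of 20% propylene glycol. SCL60 cells received triptorelin for 0.5, 1, 2, 8 or 24 h, with vehicle controls at 0, 1, 8 and 24 h, and HEK293 cells received triptorelin for 1 or 24 h, with controls at 0, 1 and 24 h. Each of the 14 groups had 4 arrays except the SCL60 vehicle controls at 1 h, which had 3. All SCL60 arrays came from 1 transfected line, so the line and the receptor cannot be told apart. Labels do not say whether replicates were separate cultures, so p-values measure only the spread between these samples, which may be technical.

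The GnRH receptor couples mainly to Gq proteins, which activate phospholipase C, calcium release, protein kinase C and the mitogen-activated protein kinases. These pathways first switch on immediate early genes such as FOS and EGR1, whose protein products then act on a later set of genes. In pituitary gonadotropes the cascade ends in gonadotropin synthesis. A transfected line such as SCL60 has the receptor and the shared signalling machinery without the gonadotrope's own transcription factors.

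Between 11766 and 14763 probes were detected per array, and correlations between replicate arrays ran from 0.950 to 0.993. Of 7 listed HEK293 genes, 6 were detected on all 55 arrays, and PAX2 was detected on none. The human GNRHR probe was detected on no array, nor were LHB and FSHB, while CGA was detected on 16 SCL60 arrays. Of the listed blood, fibroblast, endothelial, kidney tubule and other pituitary markers with a probe, CD14 (39 arrays), COL1A1 (25 arrays) and PECAM1 (4 arrays) were detected and the others were detected on none. The arrays were hybridised in 2 labelled batches of 33 and 22, and every group had arrays in both.

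The 10 genes fell into 2 that were higher and 8 that were lower after triptorelin. LBH encodes a small acidic nuclear protein that acts as a transcriptional cofactor in limb bud and heart development, and C11orf96 encodes a protein of unknown function. Among the lower genes, LRRC20 encodes a protein of leucine-rich repeats, TLCD1 a membrane protein that affects the fatty acid make-up of membrane phospholipids, and PWWP3A (formerly MUM1) a chromatin protein of the DNA damage response. IGDCC3 is a cell surface protein of the immunoglobulin superfamily related to DCC, and SAMD11 carries a sterile alpha motif and is known in mouse photoreceptors as a partner of Polycomb proteins. NREP (P311) is a small protein linked to neuronal regeneration and to transforming growth factor beta, KIAA1549L is a membrane protein of unknown function, and TMEM266 has a voltage-sensor domain.

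Promoter windows from 250 bases before to 50 bases after each annotated start were available for 7 of the 10 genes (16 windows) from RefSeq on GRCh38.p14. They were searched on both strands for binding motifs of factors known downstream of the receptor. The motif of the EGR factors, GCGNGGGCG, was in 3 of those 7 genes (LBH, TLCD1 and TMEM266), and 11.2% of all 27305 genes with a window had it. A loose form of the AP-1 motif, TGANTCA with any base at the centre, was in 2 (LRRC20 and NREP), against 9.37% of all genes. The match read TGAATCA in LRRC20 and TGATTCA in NREP, so neither had the C or G of the strict AP-1 motif at its centre. None of the 7 had the cyclic AMP response element TGACGTCA (2.25% of all genes) or the related sequence TGACGCA (2.96%). Nor did any have the TEAD motif GGAATG (16.7%) or the serum response element (1.60%). Counts were the same when only the bases before the start were searched. The sequence TGACG, with which both TGACGTCA and TGACGCA begin, was not searched for alone. The LBH window holds it, in tgacgtta, so absence of the longer sequences does not mean absence of this shorter one. The members had more windows per gene than all genes (35116 windows), which gives each more chances of a match. By window, 9.43% of all windows had the EGR motif and 7.71% the loose AP-1 form. Apart from its free base the EGR motif holds only G and C, and the shares over all genes were not matched for GC content. Whether the members hold more matches than other genes was not tested. A match describes the letters of the window and is not a measured binding site. The windows below show that an EGR match lies upstream of a gene that was higher (LBH) and of genes that were lower (TLCD1 and TMEM266). NREP shows a match to the loose AP-1 form upstream of a lower gene. The matched bases are in capitals.

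In LBH (chr2:30231284-30231583, plus strand) the match lay at bases -43 to -35 and is on the opposite strand. In TLCD1 (chr17:28726184-28726483, minus strand) a pair of overlapping matches covered bases -68 to -60 and -62 to -54. In TMEM266 (chr15:76059735-76060034, plus strand) the match lay at bases -161 to -153. In NREP (chr5:111976883-111977182, minus strand, the most upstream of its 6 windows) the match to the loose AP-1 form lay at bases -120 to -114.
LBH: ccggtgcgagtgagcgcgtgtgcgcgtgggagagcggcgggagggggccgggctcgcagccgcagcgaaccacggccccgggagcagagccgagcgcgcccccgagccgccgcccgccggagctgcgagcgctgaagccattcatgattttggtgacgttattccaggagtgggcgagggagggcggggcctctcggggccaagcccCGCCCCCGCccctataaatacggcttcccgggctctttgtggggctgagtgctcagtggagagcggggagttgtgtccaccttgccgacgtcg
TLCD1: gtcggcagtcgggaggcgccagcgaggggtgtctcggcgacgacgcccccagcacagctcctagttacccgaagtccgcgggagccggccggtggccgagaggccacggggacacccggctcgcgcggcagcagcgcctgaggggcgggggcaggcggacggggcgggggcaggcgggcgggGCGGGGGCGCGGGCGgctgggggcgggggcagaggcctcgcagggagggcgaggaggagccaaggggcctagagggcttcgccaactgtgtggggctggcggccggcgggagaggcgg
TMEM266: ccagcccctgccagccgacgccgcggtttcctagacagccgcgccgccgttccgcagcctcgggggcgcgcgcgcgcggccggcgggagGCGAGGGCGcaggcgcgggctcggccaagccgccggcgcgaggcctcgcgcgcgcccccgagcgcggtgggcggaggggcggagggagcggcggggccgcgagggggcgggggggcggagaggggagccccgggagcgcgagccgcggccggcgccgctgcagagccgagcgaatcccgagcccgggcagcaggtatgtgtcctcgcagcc
NREP: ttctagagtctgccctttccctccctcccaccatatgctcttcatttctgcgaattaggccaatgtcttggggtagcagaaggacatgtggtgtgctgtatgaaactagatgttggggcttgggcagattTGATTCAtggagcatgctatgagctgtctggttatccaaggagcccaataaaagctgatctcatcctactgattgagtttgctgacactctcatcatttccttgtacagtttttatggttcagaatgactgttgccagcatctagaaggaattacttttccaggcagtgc

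LBH was close to the detection limit in every control group and was among the highest responses at 8 and 24 h. In the SCL60 vehicle controls its log2 signal was 5.73, 5.65 and 5.94 at 1 h, 5.07, 5.30, 6.63 and 5.59 at 8 h, and 5.35, 5.31, 5.95 and 5.72 at 24 h, with detection on 2 arrays of each of those groups. After triptorelin it was 5.27, 5.31, 5.56 and 5.79 at 0.5 h, then 6.81, 6.61, 7.04 and 6.53 at 1 h, and 8.51, 8.36, 8.72 and 8.36 at 2 h. It was 10.79, 11.02, 11.21 and 10.75 at 8 h and 9.83, 10.70, 10.12 and 10.14 at 24 h. Most of the 0.5 h arrays lay below the 1 h controls of their comparison, with overlap, and all lay within the range of the vehicle arrays listed here. From 1 h on every treated array was above every control of its comparison.

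The difference in LBH from vehicle was -0.29 ± 0.28 (SE) on the log2 scale at 0.5 h, 0.97 ± 0.28 at 1 h, 2.72 ± 0.28 at 2 h, 5.29 ± 0.26 at 8 h and 4.61 ± 0.26 at 24 h. A gene was counted as past 2-fold where the difference reached 1 on the log2 scale and the arrays of the 2 groups did not overlap, and by that rule LBH was first past it at 2 h. The 1 h value lay just under the line: it was 1.03 with the replicate number as a block, which pairs the arrays in this comparison, and 0.65 without background correction. At 8 h LBH was 39.2-fold higher than vehicle and ranked 6 among the rises of 16016 probes, and at 24 h it was 24.5-fold higher and ranked 3. Vehicle signals lay near the detection limit, and without background correction the log2 difference was 2.08 at 2 h, 4.47 at 8 h and 3.79 at 24 h. The 24 h difference was 87.2% of the 8 h difference on the log2 scale, and the treated arrays themselves were 0.75 ± 0.26 lower at 24 h than at 8 h, with no overlap.

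A further LBH probe (ILMN_2244009) had a lower signal and was detected in no control group of either line. Its signal was 6.56, 6.86, 7.10 and 7.94 at 8 h and 5.70, 5.88, 6.21 and 6.72 at 24 h, where 3 of 4 arrays detected it, and its vehicle arrays lay between 4.35 and 4.99 at those times. Because no vehicle array detected it, the fold is a bound set by the lowest detected signal of each array: LBH by this probe was at least 2.75-fold higher at 8 h and at least 1.36-fold higher at 24 h. Across the 14 group means the 2 LBH probes had a Pearson correlation of 0.95, and both put the highest LBH level at 8 h. The further probe passed the detection filter only through SCL60 triptorelin arrays (1 at 2 h, 4 at 8 h and 3 at 24 h). Its likeness to the main probe is therefore description and no separate support.

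C11orf96, which was detected on 54 of the 55 arrays, was higher from 1 h on and reached its highest level at 8 h. Its vehicle arrays read 5.91, 6.98 and 7.18 at 1 h, 6.08, 5.73, 6.52 and 6.56 at 8 h, and 5.92, 6.05, 6.57 and 6.56 at 24 h. With triptorelin the signal was 7.24, 7.00, 7.65 and 7.51 at 0.5 h, 7.95, 7.25, 8.02 and 8.58 at 1 h, and 8.60, 7.63, 8.48 and 8.29 at 2 h. At 8 h it was 11.73, 10.90, 11.33 and 12.14, and at 24 h 9.17, 8.31, 9.60 and 9.99. The treated arrays overlapped the controls at 0.5 h and lay above all of them from 1 h to 24 h.

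The difference in C11orf96 was 0.66 ± 0.33 at 0.5 h, 1.26 ± 0.33 at 1 h, 1.56 ± 0.33 at 2 h, 5.30 ± 0.31 at 8 h and 2.99 ± 0.31 at 24 h. At 8 h this was 39.5-fold and rank 5 among the rises, next to LBH, and at 24 h it was 7.96-fold and rank 19. The 8 h difference was 4.71 without background correction. The early values rested in part on 1 vehicle array: without replicate 2 of the 1 h controls, the lowest at 5.91, the difference was 0.27 at 0.5 h, 0.87 at 1 h and 1.17 at 2 h, so that the 1 h value was no longer past 2-fold. That setting keeps the treated array of the same number, which was the lowest of its group at 1 h, and within same-numbered pairs, compared after seeing the data, the 1 h differences were 1.35, 1.04 and 1.40. C11orf96 was a further 3.27 ± 0.31 higher at 8 h than at 2 h in the treated arrays. After 8 h its level was lower again: treated arrays were 2.26 ± 0.31 lower at 24 h than at 8 h, and 56.4% of the 8 h difference was left.

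**Figure D1:**
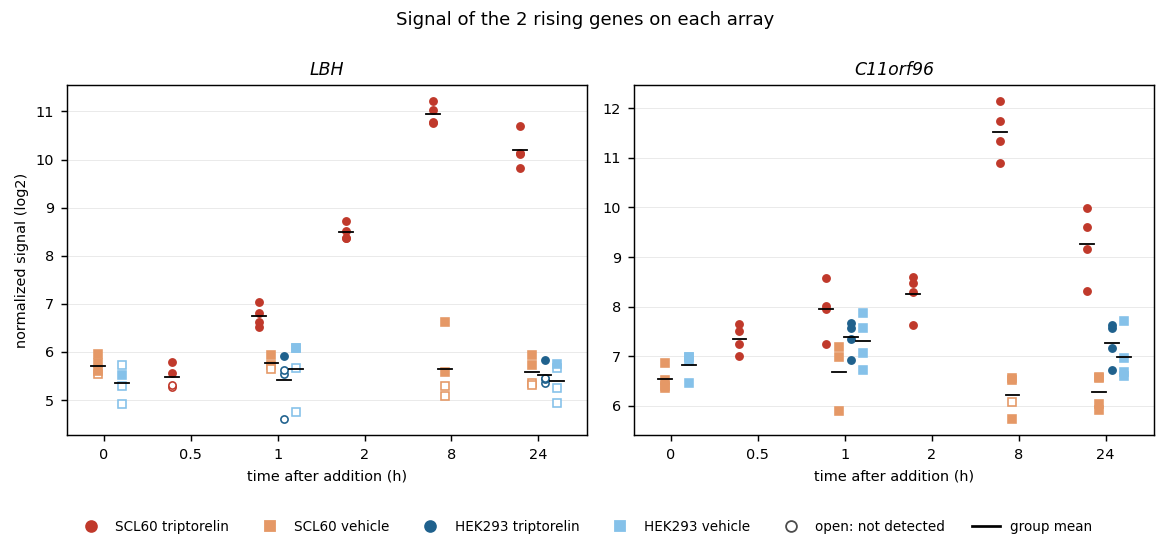
Normalized log2 signal (vertical axis) of LBH and C11orf96 on each array at each time after addition (horizontal axis, h), for SCL60 and HEK293 cells with triptorelin or vehicle; open points are arrays on which the probe was not detected and black bars are group means. The SCL60 triptorelin arrays at 8 h lie between 10.75 and 11.21 for LBH and between 10.90 and 12.14 for C11orf96, above all vehicle arrays.

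The 2 higher genes can be set beside the classical early response. Of 20 listed immediate early and early feedback genes, 19 were tested, and 8 were past 2-fold and higher at 0.5 h, 15 at 1 h, 12 at 2 h, 17 at 8 h and 11 at 24 h, with none lower. By absolute size, their largest difference came at 0.5 h for 1 gene, at 1 h for 11, at 2 h for 1, at 8 h for 5 and at 24 h for 1. The gene at 2 h was MYC, which was lower there (-0.57, against 0.56 at 1 h) and never past 2-fold. FOS, the AP-1 subunit, differed from vehicle by 5.12 at 0.5 h and 4.52 at 1 h, when LBH stood at -0.29 and 0.97. The 5 listed genes with their largest difference at 8 h were EGR1 (3.67), PTGS2 (4.62), DUSP5 (2.68), KLF10 (1.31) and FOSL1 (2.29). EGR1, FOS, DUSP5 and FOSB had higher means after 1 h of vehicle than at 0 h in HEK293, by 2.91, 1.79, 1.28 and 0.97. Only 1 of the 16016 probes passed limma's test in that comparison, so at most 1 of these differences did. Differences at 0.5 to 2 h are taken from vehicle arrays of 1 h, so the order in time of these genes rests on that choice of control. The comparisons at 0.5, 1 and 2 h all used the same 3 vehicle arrays of 1 h, since the design has no controls at 0.5 or 2 h, and time and triptorelin cannot be told apart there.

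The 8 lower genes differed from vehicle by 0.39 or less on the log2 scale at 0.5 and 1 h and were first past 2-fold at 8 h on their measured means, although KIAA1549L, which no treated array detected then, has only a bound of 1.72-fold. Counting genes, none of the 10 was past 2-fold at 0.5 h, where 0.0937% of the 16016 probes were past it upward and 0% downward. At 1 h 1 of 10 was higher (background 0.343% upward, 0% downward), and at 2 h 2 were higher and none lower (0.574% and 0.0624%). At 8 h 2 were higher and 8 lower (2.28% and 2.00%), and at 24 h 2 were higher and 5 lower (1.28% and 0.549%). These counts follow from how the genes were chosen and are read as description only. The median difference over the 10 genes was -1.37 at 8 h and -1.11 at 24 h, where the median over all probes tested was -0.02 and -0.01.

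**Figure D2:**
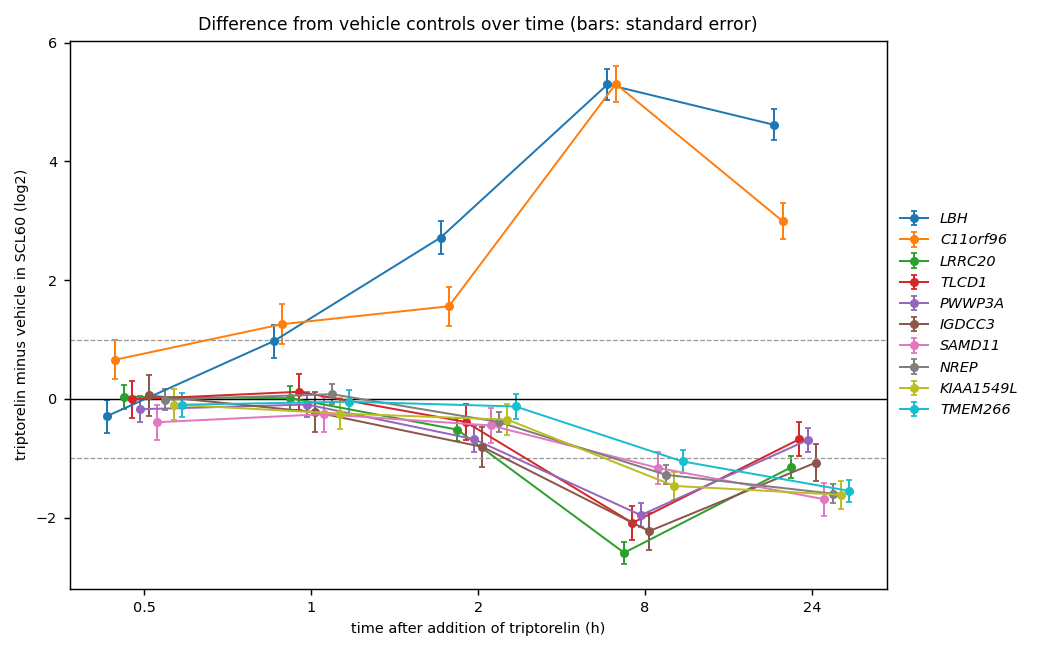
Difference between triptorelin and vehicle in SCL60 cells (vertical axis, log2) at each time (horizontal axis, h, evenly spaced) for the 10 genes; bars are standard errors of the fit and dashed lines mark 2-fold. LBH and C11orf96 peak at 8 h with 5.29 and 5.30; LRRC20, TLCD1, PWWP3A and IGDCC3 are lowest at 8 h and nearer to 0 at 24 h, and the other 4 lines are lowest at 24 h on measured values.

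LRRC20 had the most negative difference of all 16016 probes at 8 h. Its vehicle arrays read 8.58, 8.66, 8.62 and 8.76 at 8 h and its triptorelin arrays 5.97, 6.31, 5.69 and 6.31, a difference of -2.59 ± 0.18, or 6.01-fold lower. These triptorelin signals were all detected but lay near the array floors (5.33 to 6.20), which limits how exactly the fold is known. At 2 h the signal was 8.02, 8.49, 8.03 and 7.94 against 8.66, 8.29 and 8.96 in vehicle, and these groups overlapped (-0.52 ± 0.20). At 24 h it had come back to 7.49, 7.92, 7.34 and 7.59 against 8.96, 8.63, 8.64 and 8.72, a difference of -1.15 ± 0.18 without overlap. Thus 44.4% of the 8 h difference was left at 24 h, and the treated arrays were 1.52 ± 0.18 higher at 24 h than at 8 h.

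A further LRRC20 probe (ILMN_2408938) gave the same order of times. It was detected on none of the 4 triptorelin arrays at 8 h and on all 4 vehicle arrays, which makes LRRC20 by this probe at least 1.93-fold lower, with measured means 1.98 apart on the log2 scale. At 2 h it differed by -0.80 ± 0.20 and at 24 h by -0.88 ± 0.19, both without overlap. The 2 LRRC20 probes had a correlation of 0.97 over the 14 group means.

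TLCD1 and PWWP3A followed the same course at a smaller size. TLCD1 at 8 h read 6.83, 6.45, 6.11 and 6.84 with triptorelin and 9.04, 7.99, 8.74 and 8.81 with vehicle, a difference of -2.09 ± 0.28 (4.24-fold lower). At 24 h it read 8.25, 7.31, 7.97 and 8.23 against 8.77, 8.10, 8.75 and 8.84, and the groups overlapped at -0.68 ± 0.28, with all 4 same-numbered pairs below 0 (-0.52 to -0.79). Its 2 h difference of -0.39 ± 0.31 had opposite signs within the hybridisation batches, 0.34 in batch 1 and -1.32 in batch 2, where only 1 vehicle array was available, while the 3 same-numbered pairs gave -0.57, -0.25 and -0.05. Of the 5 times, the TLCD1 arrays were apart from vehicle without overlap at 8 h only.

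PWWP3A at 8 h read 6.89, 6.88, 7.05 and 6.27 with triptorelin against 8.51, 8.83, 8.91 and 8.66 with vehicle, a difference of -1.95 ± 0.20 (3.88-fold lower). It was already lower at 2 h, where its arrays of 8.10, 8.31, 8.05 and 7.60 lay below the vehicle values of 8.79, 8.65 and 8.63, by -0.68 ± 0.22. At 24 h the arrays read 7.54, 8.00, 8.18 and 8.04 against 8.12, 8.79, 8.98 and 8.63 and overlapped, at -0.69 ± 0.20, again with all 4 pairs below 0 (-0.57 to -0.81). TLCD1 kept 32.4% and PWWP3A 35.3% of the 8 h difference at 24 h, the smallest shares of the 10 genes.

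IGDCC3, which was detected in every SCL60 vehicle array, was mostly below detection at 8 h. Only 1 of 4 triptorelin arrays detected it then, with signals of 5.58, 4.76, 6.30 and 4.76, against 7.75, 7.29, 7.80 and 7.46 in vehicle, all detected. The measured difference was -2.22 ± 0.31, with 3 of the 4 treated signals below detection, and -1.53 without background correction. At 24 h all arrays detected IGDCC3 again, at 6.03, 5.82, 6.38 and 6.72 against 7.73, 6.40, 7.75 and 7.36, a difference of -1.07 ± 0.31 with overlap through 1 vehicle array (replicate 2, at 6.40), and -1.37 without that array, and all 4 same-numbered pairs were below 0 (-0.58 to -1.70). Its spread was wide in untreated cells too, and the 0.5 h and 1 h differences of 0.06 ± 0.34 and -0.22 ± 0.34 lay within it.

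**Figure D3:**
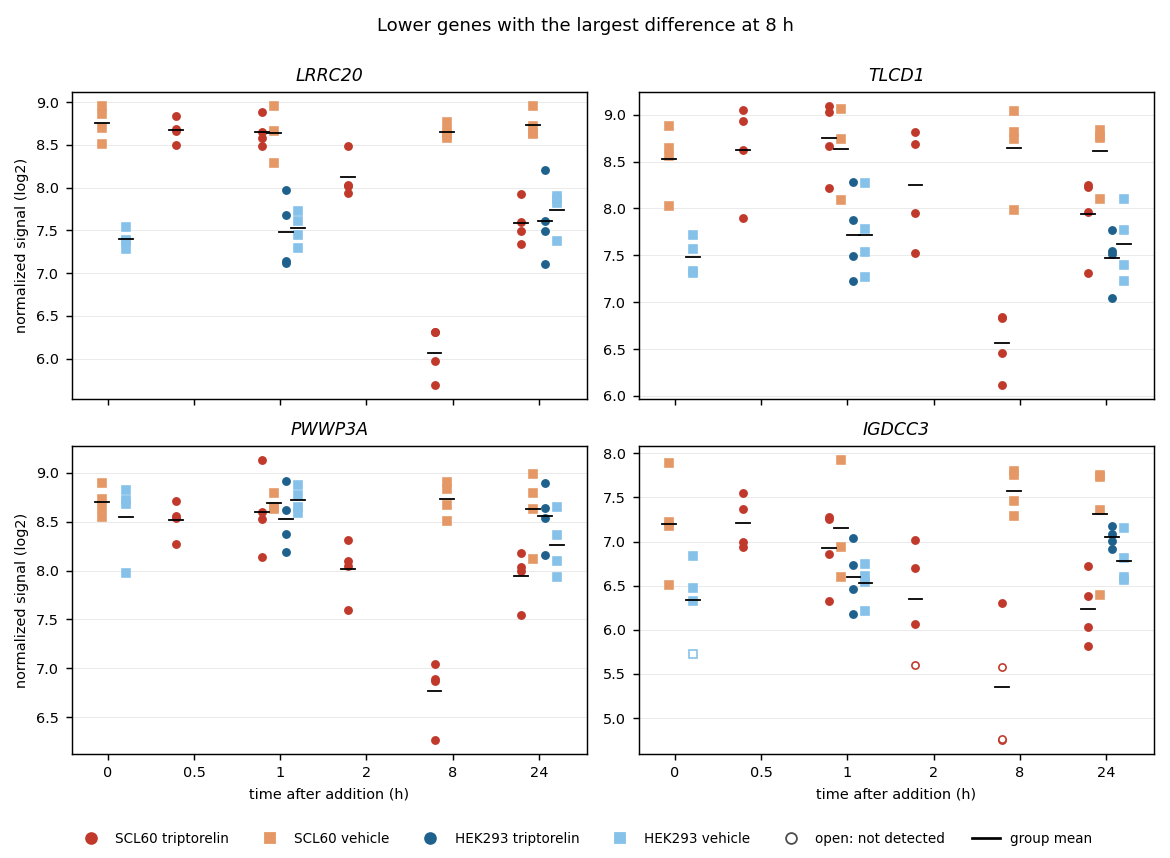
Normalized log2 signal (vertical axis) of the 4 genes with their most negative difference at 8 h, on each array at each time (horizontal axis, h); colours, open points and black bars as in the plot of LBH and C11orf96. The SCL60 triptorelin arrays at 8 h lie below all SCL60 vehicle arrays in each panel, from 5.69 to 6.31 for LRRC20, whose 24 h arrays lie between those and vehicle.

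SAMD11, NREP and TMEM266 had a different course, with the larger difference at 24 h, and KIAA1549L is described with them on its measured values. SAMD11, NREP and TMEM266 ranked 8, 10 and 11 among the most negative differences at 24 h and 186, 111 and 286 at 8 h. KIAA1549L was undetected after 8 h of triptorelin, so the order of its 2 differences is not shown by these signals. The treated arrays at 24 h and at 8 h overlapped in all 4, and the 95% interval of that difference, 24 h minus 8 h, was -0.72 to 0.39 for SAMD11, -0.33 to 0.31 for NREP, -0.27 to 0.69 for KIAA1549L and -0.77 to -0.01 for TMEM266. Vehicle means were higher at 24 h than at 8 h in all 4: 8.00 and 7.63 for SAMD11, 9.91 and 9.60 for NREP, 6.93 and 6.58 for KIAA1549L, 7.20 and 7.09 for TMEM266. The triptorelin means of NREP were 8.32 at 24 h and 8.33 at 8 h, so its larger difference at 24 h lay in the vehicle arrays.

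SAMD11 read 5.99, 6.52, 6.97 and 6.42 with triptorelin and 7.34, 7.35, 7.99 and 7.86 with vehicle at 8 h, a difference of -1.16 ± 0.27. At 24 h it read 6.04, 6.14, 6.82 and 6.24 against 7.47, 7.79, 8.44 and 8.29, a difference of -1.69 ± 0.27 (3.22-fold lower). Neither pair of groups overlapped. A further SAMD11 probe (ILMN_2195138) was lower by 0.52 at 8 h and 0.60 at 24 h with overlap at both times, and 1 of 4 and 3 of 4 triptorelin arrays detected it, so the 2 probes differed in whether 2-fold was passed.

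NREP had the smallest standard errors of the 10 genes. Its signal was 8.31, 8.37, 8.59 and 8.04 with triptorelin against 9.64, 9.35, 9.92 and 9.51 with vehicle at 8 h (-1.28 ± 0.16), and 8.50, 8.21, 8.27 and 8.31 against 9.98, 9.58, 10.20 and 9.89 at 24 h (-1.59 ± 0.16). At 2 h its arrays of 9.17, 9.45, 9.46 and 9.20 were already all below the vehicle values of 9.46, 9.66 and 10.01, by -0.39 ± 0.17. The separation at 2 h was narrow, since the lowest vehicle array and the highest treated array both read 9.46.

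KIAA1549L was below detection on 7 of the 8 SCL60 arrays at 8 and 24 h of triptorelin. None of the 4 triptorelin arrays detected it at 8 h, with signals of 5.21, 5.13, 5.31 and 4.80, while all 4 vehicle arrays did, at 6.22, 6.64, 6.80 and 6.65. KIAA1549L was at least 1.72-fold lower at 8 h, with measured means 1.46 ± 0.24 apart on the log2 scale. At 24 h 1 of 4 treated arrays detected it, with 4.90, 5.94, 5.40 and 5.04 against 7.27, 6.89, 6.49 and 7.08, a difference of -1.61 ± 0.24. No treated array reached the vehicle range at either time.

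TMEM266 read 5.99, 5.75, 6.48 and 5.94 with triptorelin against 7.13, 6.96, 7.46 and 6.82 with vehicle at 8 h, a difference of -1.05 ± 0.19, with 3 of 4 treated arrays detecting it. At 24 h it read 5.81, 5.97, 5.17 and 5.66, with 2 of 4 detected, against 7.30, 7.13, 7.06 and 7.31, a difference of -1.55 ± 0.19. At 2 h TMEM266 stood at -0.13 ± 0.21, the smallest difference of the 10 genes at that time. Without background correction the 8 h differences of SAMD11 (-0.88), KIAA1549L (-0.89) and TMEM266 (-0.74) no longer reached 2-fold.

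**Figure D4:**
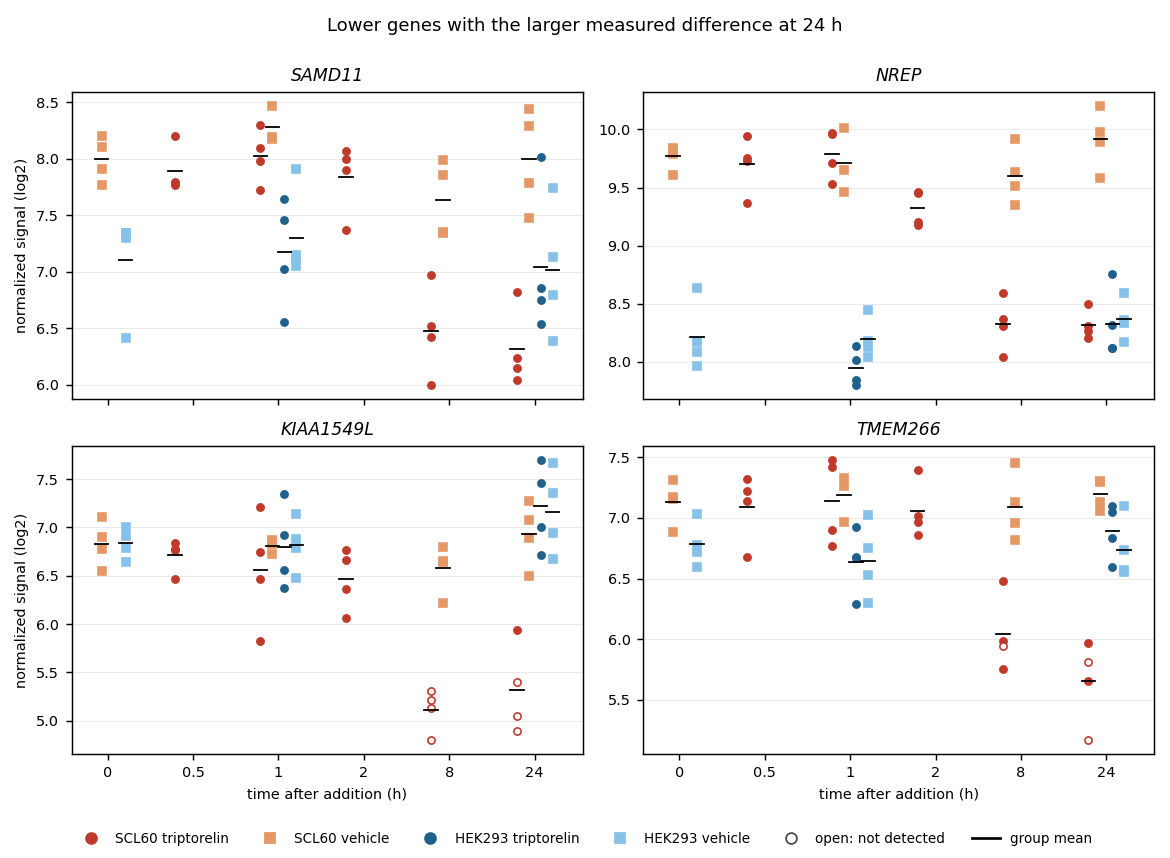
Normalized log2 signal (vertical axis) of the 4 genes with the larger measured difference at 24 h, on each array at each time (horizontal axis, h); colours, open points and black bars as in the plot of LBH and C11orf96. For NREP the SCL60 triptorelin arrays at 8 h and 24 h, from 8.04 to 8.59, lie in the range of the HEK293 arrays, and for KIAA1549L they lie below it.

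Within the 2 hybridisation batches the 8 h and 24 h differences kept their direction in all 10 genes. Batch 2 held 1 triptorelin array at 8 h and 1 array of each group at 24 h, so its values rest on those single arrays. LBH differed by 5.03 in batch 1 and 5.45 in batch 2 at 8 h, and C11orf96 by 5.33 and 5.42. LRRC20 differed by -2.54 and -2.70 at 8 h, and NREP by -1.63 and -1.48 at 24 h. The widest gap between batches was in KIAA1549L at 24 h, with -1.36 in batch 1 and -2.37 in batch 2, where each group had 1 array. As these are bulk samples, fewer cells of a kind and less RNA per cell cannot be told apart.

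In HEK293 cells without the transfected receptor, none of the 10 genes passed the test for a response to triptorelin. These arrays took no part in choosing the genes, so limma's moderated test with Benjamini-Hochberg adjustment over the 16016 probes applies. At 1 h none of the 10 passed an adjusted p of 0.05, nor did any probe on the array (0%, with 338 probes under an unadjusted p of 0.05), and the gene differences ran from -0.25 (NREP) to 0.07 (IGDCC3). At 24 h again none passed (0%, 358 probes unadjusted), with differences from -0.16 (TLCD1) to 0.30 (PWWP3A), and limma's adjusted p was 1 for every member in both comparisons. The further LRRC20 probe, at -0.39 at 1 h, had the lowest unadjusted limma p of the 13 probes (0.0439).

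The intervals show what size of effect these HEK293 arrays leave room for. For LBH the 95% interval ran from -0.75 to 0.29 at 1 h and from -0.40 to 0.64 at 24 h, with HEK293 triptorelin arrays of 5.83, 5.35, 5.44 and 5.45 at 24 h against vehicle arrays of 5.66, 5.24, 5.76 and 4.94. For C11orf96 it ran from -0.55 to 0.69 and from -0.34 to 0.90, and for LRRC20 from -0.41 to 0.32 and from -0.50 to 0.23. The 24 h response in SCL60 exceeded that in HEK293 by 4.50 ± 0.37 for LBH and 2.71 ± 0.44 for C11orf96. Among the lower genes this difference of responses ran from -0.52 ± 0.40 (TLCD1) to -1.71 ± 0.39 (SAMD11). These differences of responses rest on the arrays that chose the genes and carry no test.

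None of the 10 genes passed the test for vehicle and time in culture in HEK293. Between 0 h and 1 h of vehicle the gene differences ran from -0.13 (TMEM266) to 0.47 (C11orf96), with a lowest limma adjusted p of 0.997, when 1 probe of 16016 passed (0.00624%). C11orf96 read 6.98, 6.47, 6.99 and 6.90 at 0 h and 7.87, 6.73, 7.06 and 7.56 at 1 h, which overlapped. Between 0 h and 24 h they ran from -0.29 (PWWP3A) to 0.44 (IGDCC3), with a lowest limma adjusted p of 0.952, and none of the 16016 probes passed (0%, with 839 under 0.05 unadjusted). In the SCL60 vehicle controls the gene differences from 0 h ran from -0.12 to 0.28 at 1 h, from -0.36 to 0.38 at 8 h and from -0.27 to 0.15 at 24 h, given as description.

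Untreated SCL60 cells already differed from HEK293 in 5 of the 8 genes that were lower after triptorelin. At 0 h NREP, LRRC20, TLCD1, SAMD11 and IGDCC3 were higher in SCL60, and none of the 10 genes was lower. That is 5 of 10 genes, where 18.3% of all probes passed in either direction 10.4% were higher and 7.93% lower. These arrays entered neither side of the triptorelin comparisons as reported above, and limma's moderated test over all probes was used. Choosing genes by large falls in SCL60 favours genes with a high SCL60 signal, and these arrays share that baseline. The fit also took its variance from all arrays, among them those that chose the genes. Set against all probes, 5 of 10 is therefore description, and whether it exceeds their share was not tested.

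NREP read 9.83, 9.61, 9.84 and 9.79 in SCL60 and 8.63, 7.96, 8.17 and 8.09 in HEK293, a difference of 1.55 ± 0.16 (2.94-fold, limma adjusted p = 4.12e-11). LRRC20 read 8.96, 8.86, 8.51 and 8.69 against 7.38, 7.54, 7.29 and 7.39, a difference of 1.36 ± 0.18 (limma adjusted p = 9.31e-08), and its further probe was 1.12 higher (limma adjusted p = 1.17e-05). In both genes every SCL60 array was above every HEK293 array. The differences kept their direction within each hybridisation batch, at 1.74 and 1.09 for NREP and 1.20 and 1.53 for LRRC20. Batch 2 holds 1 HEK293 array at 0 h (replicate 1), so all batch 2 values at 0 h rest on that array.

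TLCD1 read 8.64, 8.03, 8.88 and 8.56 in SCL60 against 7.71, 7.56, 7.32 and 7.34 in HEK293, a difference of 1.04 ± 0.28 (limma adjusted p = 0.00592), with 1.31 in batch 1 and 0.62 in batch 2. SAMD11 read 7.77, 8.10, 7.91 and 8.20 against 6.41, 7.34, 7.30 and 7.35, a difference of 0.89 ± 0.27 (limma adjusted p = 0.0161), with 0.73 and 1.52 in the batches, and 0.66 without the HEK293 array at 6.41 (limma adjusted p = 0.112) or 0.83 without the SCL60 array at 8.20 (limma adjusted p = 0.0539). IGDCC3 read 7.88, 6.51, 7.22 and 7.18 against 6.32, 5.72, 6.84 and 6.48, which overlapped, a difference of 0.86 ± 0.31 (limma adjusted p = 0.047) with 0.85 and 0.88 in the batches. The IGDCC3 call was lost under several alternatives, among them hybridisation batch as a block (limma adjusted p = 0.0545) and 6 of the 8 fits that left out 1 array. Within batch 1 SAMD11 did not pass (limma adjusted p = 0.193). The batch 2 values rest on 1 HEK293 array, for SAMD11 the one at 6.41.

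The other 5 genes did not pass at 0 h. TMEM266 differed by 0.35 with a 95% interval of -0.03 to 0.73 (limma adjusted p = 0.218), LBH by 0.35 (-0.17 to 0.87), PWWP3A by 0.15 (-0.25 to 0.56), KIAA1549L by 0.00 (-0.48 to 0.48) and C11orf96 by -0.29 (-0.91 to 0.33). LBH was detected on 3 of 4 SCL60 and 1 of 4 HEK293 arrays. The line difference was seen again in the vehicle controls, given as description since those arrays chose the genes: NREP differed by 1.51 at 1 h and 1.55 at 24 h, and LRRC20 by 1.11 and 1.00.

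**Figure D5:**
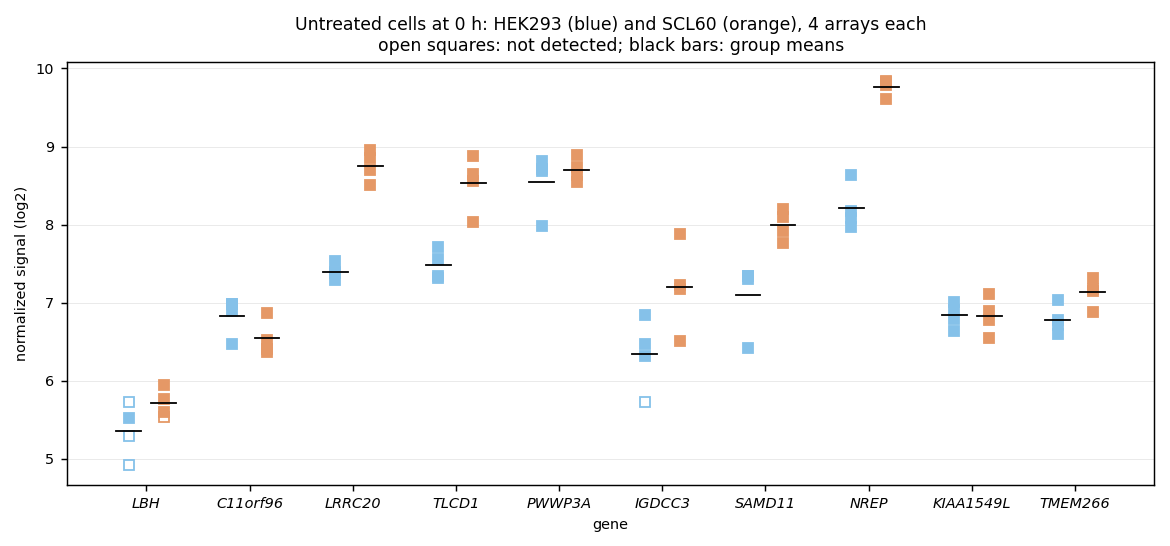
Normalized log2 signal (vertical axis) of the 10 genes (horizontal axis) in untreated HEK293 and SCL60 cells at 0 h, 4 arrays each; open squares are arrays without detection and black bars are group means. The SCL60 arrays lie above all HEK293 arrays for LRRC20, TLCD1, SAMD11 and NREP; levels of different genes are not comparable, as each probe has its own brightness.

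Treated SCL60 cells at 24 h can be set beside treated HEK293 cells at 24 h, as values with no test. NREP then read 8.32 on average in SCL60 and 8.33 in HEK293, a difference of -0.01 with a 95% interval of -0.32 to 0.31. LRRC20 read 7.59 and 7.61, a difference of -0.02 (-0.39 to 0.35), and TLCD1 differed by 0.47 (-0.10 to 1.04). These 3 genes, higher in SCL60 before treatment, thus overlapped with HEK293 after 24 h of triptorelin. SAMD11 (-0.73), IGDCC3 (-0.81), PWWP3A (-0.62), TMEM266 (-1.24) and KIAA1549L (-1.90) had intervals wholly below 0, with array overlap in SAMD11 and PWWP3A, and LBH (4.68) and C11orf96 (2.00) were above HEK293 without overlap.

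Relatives and genomic neighbours of the 10 genes were looked at for the same responses. Of 24 listed relatives, such as TLCD3A, PWWP3B, IGDCC4 and NEO1, 15 were tested and none was past 2-fold at any of the 5 times, with 8 h differences from -0.66 (IGDCC4) to 0.80 (TLCD3A). Their median at 8 h was 0.16, against -0.02 over all probes. Of the nearest protein-coding genes on either side of each member, 20 in all, 13 were tested, and 2 were past 2-fold, both lower at 8 h: NEK8 beside TLCD1 (-1.11) and NRG4 beside TMEM266 (-1.50). Over all probes 2.00% were past 2-fold downward at 8 h, and the median of the neighbours tested was -0.07. At 24 h NEK8 and NRG4 stood at -0.20 and -0.59. Whether neighbours share the responses of the members was not tested. YPEL5 and LCLAT1, on either side of LBH, differed by 0.45 and 0.50 at 8 h, and both neighbours of C11orf96 were untested for lack of detection.

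Over the 14 group means, the genes most like each member were found among probes whose means spanned at least 1 on the log2 scale. All such probes share the same 55 arrays, so these correlations are a description. LBH was closest to SPRY4 (Pearson r 0.99), a feedback inhibitor of MAP kinase signalling, then TAC1 (0.99), which encodes substance P, and CGA (0.99), the shared gonadotropin alpha subunit. C11orf96 was closest to TENT5A (0.97), ERRFI1 (0.97), a feedback inhibitor of the EGF receptor, and FOSL1 (0.96), an AP-1 subunit. LBH and C11orf96 had an r of 0.91 with each other.

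Among the lower genes, LRRC20 was closest to TMEM187 (0.99), and TLCD1 to CGN (0.99), the tight junction protein cingulin, followed by LRRC20 itself (0.98). PWWP3A was closest to SIX5 (0.98), IGDCC3 to TRADD (0.95), SAMD11 to DEPTOR (0.97), an inhibitor of mTOR, and NREP to AHNAK2 (0.98). KIAA1549L was closest to the ephrin receptor EPHA4 (0.99) and TMEM266 to NME3 (0.97). The 28 pairs among the 8 lower genes had correlations from 0.19 to 0.98 with a median of 0.75.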

How the data were processed

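Values came from the deposited table of non-normalized signals, which holds linear intensity and a detection p-value per probe (48803 probes) for all 55 Illumina HumanHT-12 v3 arrays, per the file headers. The scanner software and the annotation the authors used are not given in the sources used here. A second table, of intensities normalized and deposited by the authors, served as an alternative. Genes were named from the platform annotation, in which 28098 probes have 1 symbol, 13 have several and 20692 have none, and symbols were updated through gene IDs.

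Signals were background-corrected by normexp in limma (3.58.1, R 4.3.3) with negative controls inferred from detection p-values and an offset of 16, quantile normalized and put on the log2 scale. Probes with a detection p under 0.01 on at least 3 arrays were kept (16016). All 55 arrays entered 1 linear model with a coefficient for each group, an intensity trend and Benjamini-Hochberg adjustment over all probes kept, at 0.05. Differences from the SCL60 triptorelin arrays are given without p-values. The number of arrays limits the precision. Tested on simulated data for the HEK293 24 h comparison over 16016 probes, the fit recovered 14.0% of changes of 0.5 on the log2 scale, 78.0% of changes of 1, 98.0% of changes of 2 and 88.0% of changes of -1 (50 probes each), with 8 false calls.

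The 10 genes, their related lists and the rule for naming genes (the 10, every probe, and the 3 most alike genes over the group means) were chosen with earlier results of these data known. Same-numbered replicates deviated together (correlation over 0.1 in every pair) in all 5 SCL60 triptorelin comparisons and in HEK293 vehicle at 1 h against 0 h, so the numbers pair the arrays there; the pairing was taken from the data. Alternatives covered background correction, the authors' values, normalization, the filter, 1 probe a gene, blocks for replicate, chip, labelling and hybridisation batch, within-batch fits, a fit on only the 2 groups compared, the 0 h controls, leaving out each array and, chosen after seeing the data, differences within same-numbered pairs.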

Additional observations from a re-analysis of the deposited data

Results flagged for a closer look

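In 7 of 130 groups of 4 arrays, 1 array lay far from the others of its group, and chance flags about 1 in 20 groups. LRRC20 read 7.37 on replicate 3 of the HEK293 24 h vehicle controls, where the other 3 arrays averaged 7.86, and 8.49 on replicate 2 of SCL60 at 2 h of triptorelin, against 8.00. TLCD1 read 8.10 on replicate 2 of the SCL60 24 h vehicle controls, against 8.79. PWWP3A read 7.98 on replicate 1 of the HEK293 0 h controls, against 8.74, and SAMD11 read 6.41 on that same array, against 7.33. SAMD11 also read 7.91 (7.905) on replicate 3 of the HEK293 1 h vehicle controls, against 7.10, and 8.20 (8.201) on replicate 4 of SCL60 at 0.5 h of triptorelin, against 7.78.

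At 24 h of triptorelin, IGDCC3 was below its vehicle mean on all 4 SCL60 arrays and above it on all 4 HEK293 arrays. The HEK293 difference of 0.27 did not pass limma's test (adjusted p = 1), so no response in HEK293 is shown. The SCL60 difference minus the HEK293 difference was -1.33 (SE 0.44), and this was not tested, since the SCL60 arrays chose the gene.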

How the results depend on the processing

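No value changed its sign while past its threshold under any alternative run. The count of member probes past 2-fold in SCL60 at 1 h was 1, became 0 without background correction, and 2 with the 0 h controls, with the replicate block (the numbers pair the arrays there), and with chip, labelling batch or hybridisation batch as a block; leaving out 1 array gave 0 (vehicle replicate 2) to 2 (vehicle replicate 4, treated replicate 2 or treated replicate 4). At 2 h it was 2, and 4 within hybridisation batch 2, which holds 1 vehicle array. The count of member probes called between SCL60 and HEK293 at 0 h was 7 and became 4 within hybridisation batch 1. Batch 2 holds 1 HEK293 array at 0 h, so no count is given for it. The count ran from 4 to 6 when 1 array was left out, and was 4 without replicate 4 of SCL60 or replicate 1 of HEK293. The replicate block changed no other call; it left 7 calls at 0 h, where the samples share only a number. Without background correction or with the authors' values, differences were smaller: LBH at 8 h was 4.47 and 4.50, and KIAA1549L -0.89 and -0.91. Among single-gene and motif values, 2089 held, 51 moved and 16 lost their call. Signals near the detection limit (array floors from 5.33 to 6.20, log2) bound what can be said of LBH in controls and of LRRC20, KIAA1549L, IGDCC3 and TMEM266 after triptorelin.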
